A study of Mus musculus with 3 samples.

Results

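Tight junctions seal the space between neighbouring cells, and in peripheral nerve they close the barriers that separate nerve fibres from blood and from the tissue around the nerve. In dorsal root ganglia (DRG) the study describes the capillaries among the cell bodies as highly permeable. This account follows 9 of the genes that build tight junctions, Cldn1, Cldn5, Cldn11, Cldn12, Cldn14, Cldn19, Ocln, Tjp1 and F11r, chosen by name among the 32227 genes listed in the series. Nuclear RNA was sequenced from L3 to L5 DRG of C57BL/6 mice, with no genetic change and no treatment given in the labels. The labels give all mice as male, whereas the methods of the study give its aged mice as female in one place and ganglia from both sexes in another, and the sex is thus unsettled. There was 1 library from adult mice (3 months) and there were 2 libraries from aged mice (21 months). The study calls the libraries biological replicates, but how many mice went into each is not stated. P-values between classes rest only on the spread across these libraries that is left after shifts shared by a whole library. Those between ages within a class rest only on the spread between the 2 aged libraries.

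Claudins, the products of the Cldn genes, span the membrane and set which ions and solutes pass between cells. Occludin (Ocln) is a second membrane protein of the same strands, JAM-A (F11r) is an adhesion protein of the immunoglobulin family beside them, and ZO-1 (Tjp1) is the scaffold that ties them to actin. In nerve the endothelium of the vessels inside the fascicle and the layered perineurium around it are both known for such junctions, while the Schwann cell closes its own myelin membranes upon themselves with claudins.

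Barcodes with more than 1000 genes were taken as nuclei, 11518 for the adult mice and 5130 and 2611 for aged replicates 1 and 2, with median depths of 3269, 4318 and 4900 unique molecular identifiers (UMIs, 1 per captured transcript). They were clustered without any tight junction gene among the features, and clusters were named from marker genes of which none is a tight junction gene. Adult and aged libraries shared 1 barcode in each of their 2 pairs, and the aged libraries shared 0. The classes tested were neuron-like nuclei (4546, 2414 and 1302, given here and throughout as adult, aged replicate 1, aged replicate 2), satellite glial cell (SGC)-like (3007, 388 and 204), myelinating Schwann cell (MSC)-like (619, 504 and 175), non-myelinating Schwann cell (NMSC)-like (700, 317 and 166), perineurial-like (522, 169 and 58), Slc47a1 fibroblast-like (444, 100 and 70), endoneurial fibroblast-like, called endoneurial-like here (217, 110 and 61), endothelial-like (201, 175 and 60), lymphocyte-like (230, 155 and 119) and myeloid-like nuclei (55, 188 and 139). The perineurial-like name rests on Itgb4, Slc2a1, Foxd1, Klf5, Pax9, Ccdc33 and Mpzl2, and the endothelial-like name on Pecam1, Flt1, Egfl7, Ptprb, Emcn, Kdr and Tek.

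All 9 genes passed the filter on low counts in the test of classes, which set the UMI sum of each class and library against the mean of the other classes. Of the 90 pairs of a gene and a class, 20 were called higher (22.2%, against 19.4% of all pairs over the 13819 genes tested) and 16 lower (17.8%, against 15.7%), by edgeR's quasi-likelihood test at an adjusted p under 0.05. The share of pairs was thus near that of all genes, and what differed was where they lay. Perineurial-like nuclei had higher calls for 5 of the 9 genes, where 13.1% of all genes were called higher. Endothelial-like nuclei had 4 of 9, against 15% of all genes, and MSC-like nuclei 4 of 9, against 20%. Endoneurial-like nuclei had 2 (12.8% of all genes), neuron-like nuclei 2 (36.9%), NMSC-like nuclei 1 (15.4%), Slc47a1 fibroblast-like nuclei 1 (16.9%) and myeloid-like nuclei 1 (22.3%), while SGC-like (22.4%) and lymphocyte-like nuclei (19.0%) had 0. Cldn12, Cldn14 and Cldn19 were called higher in neither the perineurial-like nor the endothelial-like class, and all 3 were called higher in MSC-like nuclei.

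**Figure D1:**
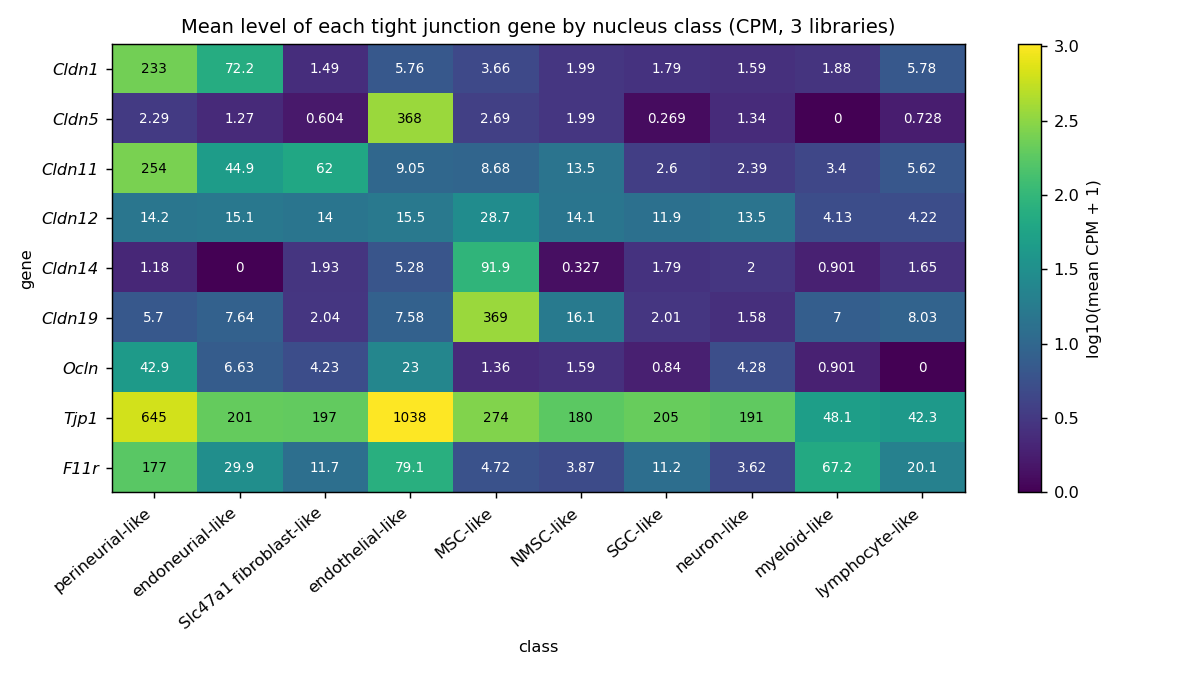
Mean level of the 9 genes (rows) in the 10 classes tested (columns), in CPM, the UMIs of a gene scaled by the total of its class and library, averaged over 3 libraries and printed in each cell, with the colour on a log10(CPM + 1) scale. Cldn5 stands out in endothelial-like nuclei at 368 CPM, Cldn14 (91.9) and Cldn19 (369) in MSC-like nuclei, and Cldn1 (233) and Cldn11 (254) in perineurial-like nuclei, while Tjp1 was counted in every class.

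Perineurial-like nuclei carried Cldn1 and Cldn11 together with Ocln, F11r and Tjp1. Cldn1, a claudin of the perineurium and of the skin barrier, stood at 193, 213 and 294 CPM in these nuclei, 233 ± 53.4 (SD, n = 3). Endoneurial-like nuclei came next with 29.2, 86.2 and 101 CPM, and no library of any other class tested exceeded 12.7 CPM. The log2 fold change against the mean of the other classes was 5.62 (SE 0.28, adjusted p = 1.94e-15) in perineurial-like nuclei. In endoneurial-like nuclei it was 3.77 (SE 0.40, adjusted p = 1.75e-08). The ranges of these classes over the libraries did not overlap, and the perineurial-like mean was 3.23-fold the endoneurial-like one.

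Cldn11, the claudin known from oligodendrocyte myelin and from the testis, reached 164, 283 and 316 CPM in perineurial-like nuclei (254 ± 80.3). It was also called higher in Slc47a1 fibroblast-like nuclei, with 51.4, 94.6 and 40.1 CPM, and in endoneurial-like nuclei, with 30.9, 58.8 and 45.0 CPM. The last 2 classes overlapped each other and stayed below every perineurial-like value. Log2 fold changes were 4.77 (SE 0.32, adjusted p = 1.12e-12) in the perineurial-like class, 2.53 (SE 0.42, adjusted p = 2.42e-05) in the Slc47a1 fibroblast-like class and 2.04 (SE 0.51, adjusted p = 0.00426) in the endoneurial-like class. The endoneurial-like call was lost without aged replicate 1 (log2 fold change 1.74, adjusted p = 0.131).

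A UMI of Cldn1 was seen in 31.6% of adult perineurial-like nuclei (165 of 522, exact Clopper-Pearson 95% confidence interval 27.6 to 35.8), and in 45.6% (77 of 169) and 50% (29 of 58) of the aged ones. After each nucleus was thinned to 1000 UMIs the shares were 16.9%, 19.5% and 20.7%, with overlapping intervals. Among SGC-like nuclei, which are deeper (medians of 3133, 7348.5 and 8240 UMIs against 2382, 2638 and 2918.5), the unthinned shares were 0.665%, 2.06% and 0.490%, and the thinned ones 0.166%, 0% and 0%. Both claudins were seen in the same nucleus in 67, 50 and 16 perineurial-like nuclei, out of 165, 77 and 29 with a UMI of Cldn1 and 151, 76 and 28 with a UMI of Cldn11. These intervals cover counting error only.

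The 250 bases before the start of Cldn1 and of Cldn11 are shown because these claudins shared their highest class. They are from RefSeq on GRCm38.p6, 5′ to 3′ on the strand of the gene, and capitals mark the GC box (GGGCGG or its reverse complement), a general promoter motif.
Cldn1, chr16:26371840-26372089, minus strand: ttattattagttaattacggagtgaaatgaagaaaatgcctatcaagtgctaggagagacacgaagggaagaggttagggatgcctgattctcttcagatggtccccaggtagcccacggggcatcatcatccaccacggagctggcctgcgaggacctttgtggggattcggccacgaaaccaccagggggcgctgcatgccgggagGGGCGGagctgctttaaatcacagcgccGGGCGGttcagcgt
Cldn11, chr3:31149670-31149919, plus strand: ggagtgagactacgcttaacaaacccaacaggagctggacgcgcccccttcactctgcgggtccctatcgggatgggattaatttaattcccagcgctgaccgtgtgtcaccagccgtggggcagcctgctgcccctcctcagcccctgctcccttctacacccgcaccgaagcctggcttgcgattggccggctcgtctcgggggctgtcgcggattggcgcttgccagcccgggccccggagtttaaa
The window of Cldn1 held 2 GC boxes and 14 CpG dinucleotides, and that of Cldn11 held 0 GC boxes and 19 CpG dinucleotides. Over all 32851 windows of the same length in the table, 32.7% held a GC box on either strand and the median number of CpG dinucleotides was 6. The match is a description of the letters and says nothing of binding.

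Ocln, F11r and Tjp1 were called higher in perineurial-like as well as in endothelial-like nuclei. Ocln stood at 33.1, 42.2 and 53.4 CPM in perineurial-like nuclei (log2 fold change 4.35, SE 0.36, adjusted p = 2.68e-10) and at 25.7, 30.5 and 12.8 CPM in endothelial-like nuclei (3.57, SE 0.41, adjusted p = 1.16e-07). The size of these fitted values depends on the prior count, since lymphocyte-like nuclei had 0 UMIs of Ocln in all 3 libraries, and the perineurial-like mean was 1.87-fold that of endothelial-like nuclei. The lowest perineurial-like library lay above the highest endothelial-like one. After thinning, the perineurial-like mean of Ocln was 29.9 CPM in place of 42.9.

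F11r counted 119, 148 and 263 CPM in perineurial-like nuclei (log2 fold change 3.39, SE 0.27, adjusted p = 5.62e-11). Endothelial-like nuclei held 57.1, 74.5 and 106 CPM (2.18, SE 0.32, adjusted p = 4.76e-06) and myeloid-like nuclei 74.9, 62.0 and 64.7 CPM (2.05, SE 0.36, adjusted p = 2.37e-05). JAM-A is also known from leukocytes, and the ranges of the endothelial-like and myeloid-like classes overlapped. F11r was called lower in MSC-like, NMSC-like and neuron-like nuclei, the NMSC-like call being lost with a gate on markers of each nucleus (-0.90, adjusted p = 0.109).

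Tjp1 was counted in every class and library. Its highest levels were 716, 1055 and 1342 CPM in endothelial-like nuclei and 573, 609 and 751 CPM in perineurial-like nuclei. The ranges overlapped, but within each of the 3 libraries the endothelial-like level was the higher. Log2 fold changes were 2.58 (SE 0.14, adjusted p = 6.96e-15) and 1.81 (SE 0.15, adjusted p = 1.13e-10). In MSC-like nuclei it was 0.63 (SE 0.16, adjusted p = 0.00247), a call that was lost without aged replicate 1 (0.40, adjusted p = 0.258), with a minimum of 2000 genes per nucleus (0.12, adjusted p = 0.66) and with a gate on markers of each nucleus (0.46, adjusted p = 0.0688). Lymphocyte-like nuclei, at 41.6, 30.6 and 54.6 CPM, and myeloid-like nuclei, at 89.9, 25.9 and 28.4 CPM, were called lower for this scaffold.

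Cldn5, the main claudin of the barrier endothelium, had by far its highest level in endothelial-like nuclei. They held 258, 301 and 124 UMIs, or 368, 340 and 397 CPM (368 ± 28.7), and the adult value lay between the aged ones. No library of another class tested exceeded 5.70 CPM, and the endothelial-like mean was 137-fold that of the next class, MSC-like nuclei. The fitted log2 fold change was 8.56 (SE 0.28, adjusted p = 5.62e-19), but its size depends on the prior count, since myeloid-like nuclei had 0 UMIs in all 3 libraries. In all, 70.0% of the UMIs of Cldn5 in nuclei lay in endothelial-like nuclei, a class of 436 nuclei, while neuron-like nuclei held 16.7% and the mixed clusters 7.99%.

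The share of endothelial-like nuclei with a UMI of Cldn5 was 38.3% (77 of 201, exact 95% confidence interval 31.6 to 45.4), 51.4% (90 of 175) and 48.3% (29 of 60), at median depths of 2325, 3458 and 3382 UMIs. Thinned to 1000 UMIs, the shares were 20.9%, 22.3% and 18.3%. In SGC-like nuclei 5 of 3007, 1 of 388 and 0 of 204 nuclei had a UMI, and the exact interval of the 0 reaches up to 1.79%.

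Plvap, a gene of the fenestrated and permeable endothelium, set endothelial-like nuclei apart in Cldn5. Nuclei with a UMI of Plvap (31, 32 and 10) held Cldn5 at 95.5, 155 and 169 CPM. Nuclei without one (170, 143 and 50) held it at 422, 396 and 488 CPM, above every value of the former. This split was looked at after the levels were seen and was not tested. Mfsd2a, Abcb1a, Slc2a1 and Slco1c1, genes of the barrier endothelium, summed to 1457, 1933 and 2094 CPM in endothelial-like nuclei, against 64.0 to 79.8 CPM in free RNA, the RNA of barcodes with 1 to 100 UMIs. They also summed to 609, 587 and 553 CPM in Slc47a1 fibroblast-like and to 338, 338 and 385 CPM in perineurial-like nuclei. Plvap itself stood at 75.6, 106 and 118 CPM in endothelial-like nuclei, against 5.82, 3.00 and 2.75 CPM in free RNA. For comparison the same 250 bases are shown for Cldn5, with the GC box in capitals.
Cldn5, chr16:18776597-18776846, plus strand: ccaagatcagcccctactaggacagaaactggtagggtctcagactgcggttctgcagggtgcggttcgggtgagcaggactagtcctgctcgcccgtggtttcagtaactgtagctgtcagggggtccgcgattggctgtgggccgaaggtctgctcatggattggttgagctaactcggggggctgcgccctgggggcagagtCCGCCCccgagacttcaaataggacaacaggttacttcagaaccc
It held 1 GC box and 12 CpG dinucleotides.

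**Figure D2:**
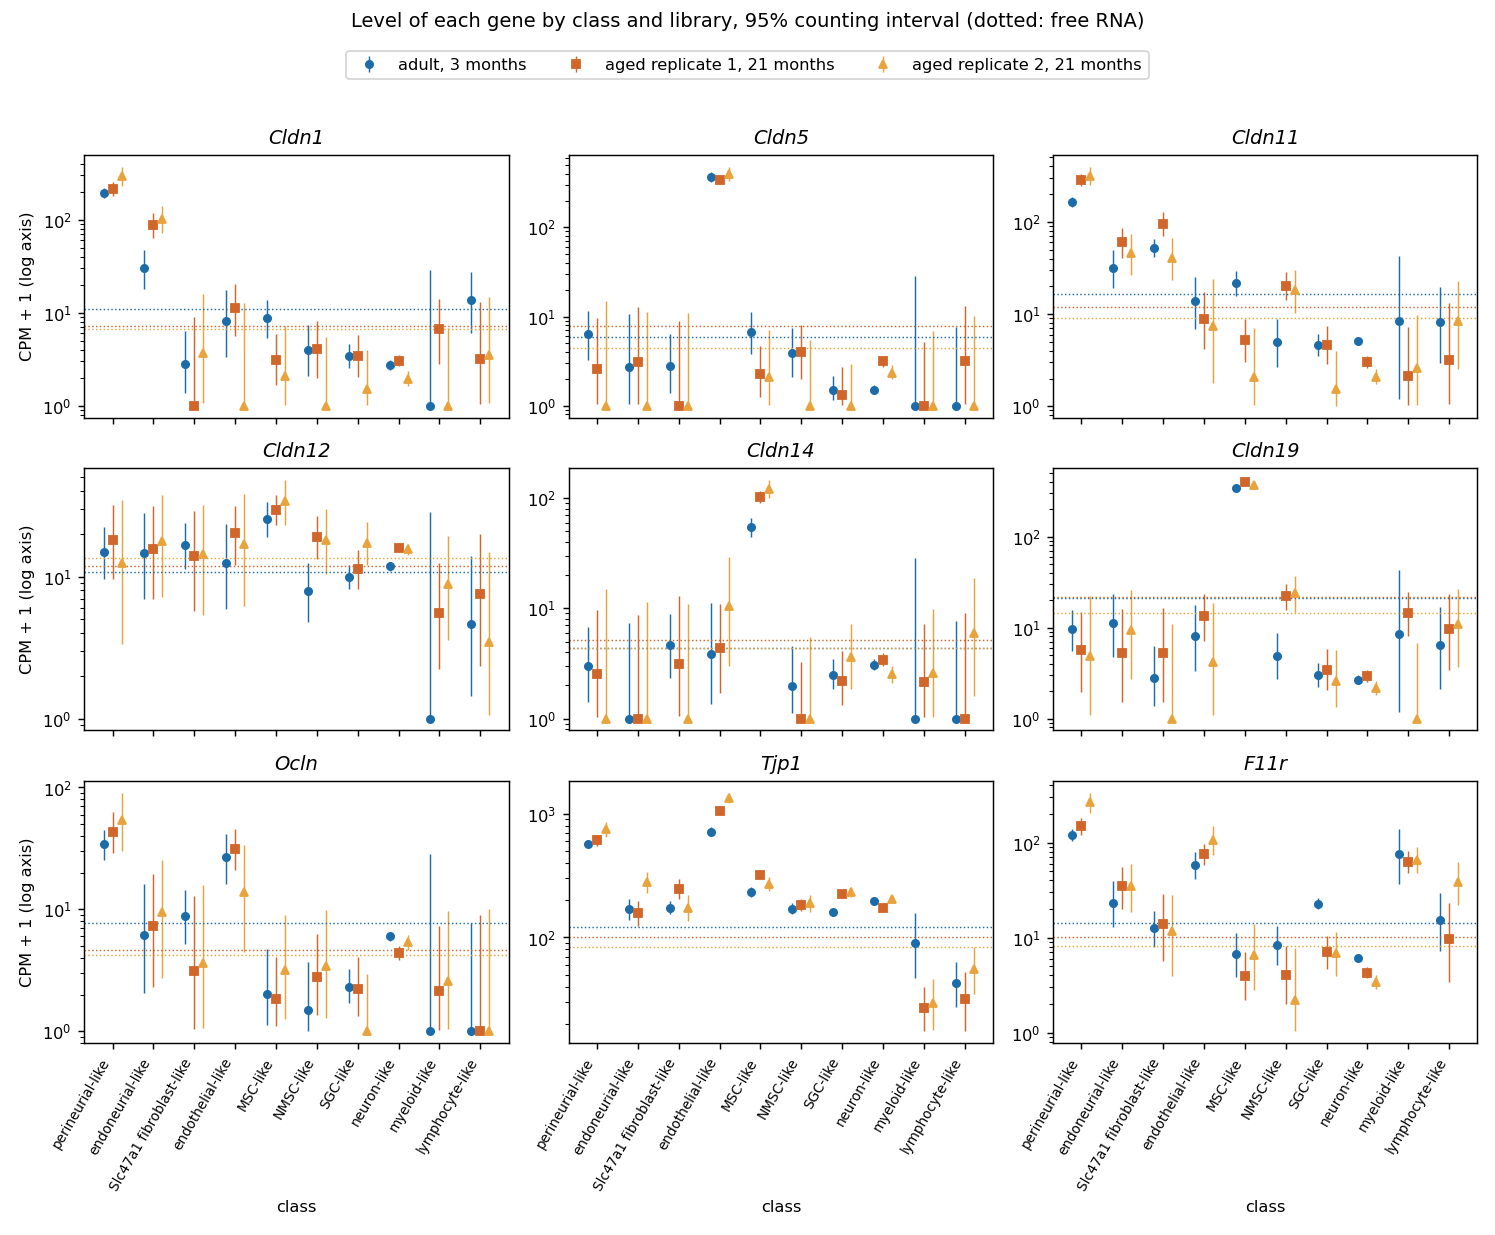
Level of each gene (panels) by class (horizontal axis) and library (colour and shape), as CPM + 1 on a log axis, with exact Poisson 95% intervals that cover counting error only. Dotted lines give the level of the same gene in free RNA of each library. In its highest class each gene lay above free RNA in all 3 libraries, by least for Cldn12, whose MSC-like mean was 2.59-fold that of free RNA.

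MSC-like nuclei were the class of Cldn19 and Cldn14. Cldn19, a claudin of Schwann cell and kidney junctions, stood at 344, 394 and 368 CPM (369 ± 25.2), 22.8-fold the mean of NMSC-like nuclei, which came next. A UMI was seen in 53.8% of MSC-like nuclei of the adult library (333 of 619), 67.1% (338 of 504) and 72.0% (126 of 175) of the aged ones, and in 29.4%, 32.7% and 31.4% after thinning. MSC-like nuclei held 76.8% of its UMIs in nuclei. The log2 fold change was 6.22 (SE 0.18, adjusted p = 2.71e-21). An antisense gene, Gm12927, overlaps Cldn19 on the other strand with 36 UMIs in all nuclei, and whether strand was used in counting is not stated.

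Cldn14, a claudin known from the inner ear and the kidney, stood at 53.4, 101 and 121 CPM in MSC-like nuclei (91.9 ± 34.8) and at most at 9.61 CPM in any library of another class tested. Its UMIs lay in fewer nuclei than those of Cldn19, in 7.59% (47 of 619), 14.7% (74 of 504) and 21.7% (38 of 175) of MSC-like nuclei. One nucleus of aged replicate 1 held 15 of them. Of these nuclei 34, 60 and 34 also had a UMI of Cldn19. The log2 fold change was 6.44 (SE 0.28, adjusted p = 2.20e-16), whose size depends on the prior count because endoneurial-like sums were at 0. Their 250 bases before the start are shown as those of the pair that shared this class, for Cldn14 at the outermost of 3 starts and for Cldn19 at the first of 2.
Cldn14, chr16:94008838-94009087, minus strand: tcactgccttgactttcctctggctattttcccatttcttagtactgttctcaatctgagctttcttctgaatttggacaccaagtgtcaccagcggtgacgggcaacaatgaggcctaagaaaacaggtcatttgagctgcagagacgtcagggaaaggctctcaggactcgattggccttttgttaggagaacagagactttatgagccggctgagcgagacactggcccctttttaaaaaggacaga
Cldn19, chr4:119255191-119255440, plus strand: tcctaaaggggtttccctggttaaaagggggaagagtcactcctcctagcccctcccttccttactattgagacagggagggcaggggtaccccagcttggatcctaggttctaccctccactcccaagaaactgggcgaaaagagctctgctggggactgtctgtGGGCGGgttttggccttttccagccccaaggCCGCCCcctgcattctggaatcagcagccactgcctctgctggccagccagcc
These windows held 6 and 3 CpG dinucleotides, at or below the median of all promoters, where those of Cldn1, Cldn11 and Cldn5 held more. The window of Cldn19 held 2 GC boxes and that of Cldn14 held 0.

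Cldn12, a claudin that lacks the usual binding motif for ZO-1, was the most evenly spread. MSC-like nuclei had 24.4, 28.7 and 33 CPM, above all libraries of the other classes tested, by 1.41 on the log2 scale (SE 0.19, adjusted p = 4.74e-07). The next 7 classes had means of 11.9 to 15.5 CPM, which is close to the 9.78 to 12.5 CPM of free RNA. Neuron-like nuclei, the most numerous class, held 74.6% of its UMIs in nuclei. They also held most UMIs of all genes, 67349734, 40795331 and 30220899, against 9960067, 3292114 and 1890142 in SGC-like nuclei, the next class tested. The neuron-like call (log2 fold change 0.39, SE 0.16, adjusted p = 0.0359) was lost in 9 of 11 alternatives, among them leaving out each of the 3 libraries in turn.

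Within neuron-like clusters Ocln was uneven. Cluster 14, with Cdh9, Tafa4 and Kcnj6 among its leading genes, held 18.3, 12.9 and 20.6 CPM, and cluster 11, with Lpar3, Grik1 and P2rx3 among them, held 9.83, 4.66 and 5.78 CPM. These clusters held 231 and 175 UMIs of Ocln, the most of any cluster, against 4 in cluster 6, led by Hapln4, Kcng4 and Shox2. The call for neurons as a whole (log2 fold change 1.11, SE 0.42, adjusted p = 0.0235, its size again dependent on the prior count) thus averages over unlike clusters, and it was lost without any 1 of the 3 libraries (adjusted p of 0.0718 to 0.173). With the gate on markers its direction turned (-1.42, adjusted p = 0.0239). The clusters were not tested against each other.

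The genes whose levels ran most like each member over the 30 class and library sums are given as a description, since sums share libraries and depth. Cldn5 ran with Gm12002, Esam and Robo4 (Pearson's r of 0.94 for each), of which Esam and Robo4 are endothelial adhesion and guidance genes. Cldn1 ran with Slc6a13 (0.93), Thbs4 (0.91) and Sox9 (0.91), and Cldn11 with Islr (0.94), Cxadr (0.90) and Zic1 (0.90). Cldn19 ran with Prx (0.95), Pmp22 (0.92) and Fa2h (0.91), all 3 of them genes that named the MSC-like class. Cldn14 ran with A330072L02Rik (0.90), Sptbn5 (0.82) and Rhot1 (0.82), Cldn12 with Ptpdc1 (0.87), Reck (0.87) and Erc1 (0.85), and Ocln with 9130017K11Rik (0.86), Col4a3 (0.85) and Cgnl1 (0.83). For Tjp1 they were Dock9 (0.87), Epn2 (0.86) and Sptbn1 (0.86), and for F11r Slco2b1 (0.84), Itga9 (0.81) and Extl3 (0.81). Among the members themselves Ocln and Tjp1 (0.75), Cldn1 and Cldn11 (0.69) and Cldn14 and Cldn19 (0.68) ran most alike.

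A list of 50 other tight junction genes, of which 48 are in the files and 26 passed the filter, gave 93 higher and 73 lower calls over 260 pairs, where all genes gave 19.4% and 15.7%. Per class, with the share of all genes called higher there, the higher calls numbered 11 of 26 in perineurial-like (13.1%), 13 in endothelial-like (15%), 13 in Slc47a1 fibroblast-like (16.9%), 12 in neuron-like (36.9%) and 10 in NMSC-like nuclei (15.4%). They numbered 11 each in MSC-like (20%), SGC-like (22.4%) and endoneurial-like nuclei (12.8%), against 1 in lymphocyte-like (19%) and 0 in myeloid-like nuclei (22.3%). In the last pair 19 and 20 genes were lower, where 19.3% and 26% of all genes were. The largest in perineurial-like nuclei were Cxadr, a receptor of the JAM group (log2 fold change 4.62, SE 0.22), Ildr2, an angulin of tricellular junctions (3.08, SE 0.26), and Cgnl1, the scaffold paracingulin (2.71, SE 0.18). Endothelial-like nuclei had Esam (7.14, SE 0.31), Lsr, also an angulin (3.45, SE 0.27), and Jam2 (2.73, SE 0.21). MSC-like nuclei had Jam3 (2.99, SE 0.14) and Magi2 (2.32, SE 0.14). Lsr (2.35), Cxadr (1.77) and Jam2 (1.72) led in endoneurial-like nuclei, Ildr2 (3.77), Lsr (2.10) and Afdn (2.04) in Slc47a1 fibroblast-like nuclei, Jam3 (1.35), Pard3 (1.21) and Jam2 (1.15) in NMSC-like nuclei, and the polarity genes Prkcz (2.53), Patj (2.04) and Magi3 (1.26) in neuron-like nuclei, all on the log2 scale.

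Between ages, none of the members was called in the class where its level was highest, except Cldn14 in MSC-like nuclei. Of the 90 pairs, 47 passed the filter on low counts within their class, 9 of them through the libraries of 1 age only (Cldn1, Cldn5 and Cldn11 in MSC-like, Cldn11, Cldn19 and F11r in NMSC-like, Cldn12 in endothelial-like and in perineurial-like, and F11r in lymphocyte-like nuclei). Of these 47, 4 were called higher and 4 lower in aged libraries, or 17.0% in all, and 3 of these 8 were among the 9. Over all genes and the 10 classes 2.39% of pairs were called higher and 4.11% lower, 6.50% in all. The 8 calls lay in 4 classes, in 2 of 8 genes tested in MSC-like nuclei (13.1% of all genes called), 2 of 5 in NMSC-like (8.67%), 1 of 4 in SGC-like (11.8%) and 3 of 9 in neuron-like nuclei (9.29%). Each fit had 1 residual degree of freedom and takes the single adult library to vary as the aged pair did. DESeq2's Wald test called 0 of the 47 and gave no adjusted p for 2 of the 8, while 17 of the 47 had an unadjusted p under 0.05 with edgeR. Such p-values were also common over all genes, with 3229 of 13397 genes in MSC-like, 2474 of 12970 in NMSC-like, 3604 of 14293 in SGC-like and 4475 of 21929 in neuron-like nuclei. The lowest share was 933 of 9282, in Slc47a1 fibroblast-like nuclei. The gate on markers left 0 calls of 44 pairs tested, and thinning 0 of 25.

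In the barrier classes no age difference of a member passed the threshold. Cldn5 in endothelial-like nuclei differed by -0.06 (SE 0.32, adjusted p = 0.979) on the log2 scale, aged against adult. For Cldn1 in perineurial-like nuclei the difference was 0.30 (SE 0.28, adjusted p = 0.823), for Ocln 0.42 (SE 0.42, adjusted p = 0.844), for F11r 0.67 (SE 0.30, adjusted p = 0.301) and for Cldn11 0.81 (SE 0.28, adjusted p = 0.0932). Both aged libraries lay above the adult one in each of these 4, an order whose share over all genes was not counted. In the same nuclei the perineurial markers stood at 1948, 2377 and 2738 CPM (0, 1 and 0 of 10 at 0). The estimated share of free RNA there was 24.8%, 22.6% and 14.6%, and the part of either was not tested. Cldn1 in endoneurial-like nuclei, at 29.2 CPM when adult and 86.2 and 101 CPM when aged, missed the threshold (1.59, SE 0.45, adjusted p = 0.0671). Tjp1 differed by 0.69 (SE 0.35, adjusted p = 0.428) in endothelial-like nuclei and was called in none of the 10 classes, and Cldn19 in MSC-like nuclei differed by 0.08 (SE 0.13, adjusted p = 0.763).

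**Figure D3:**
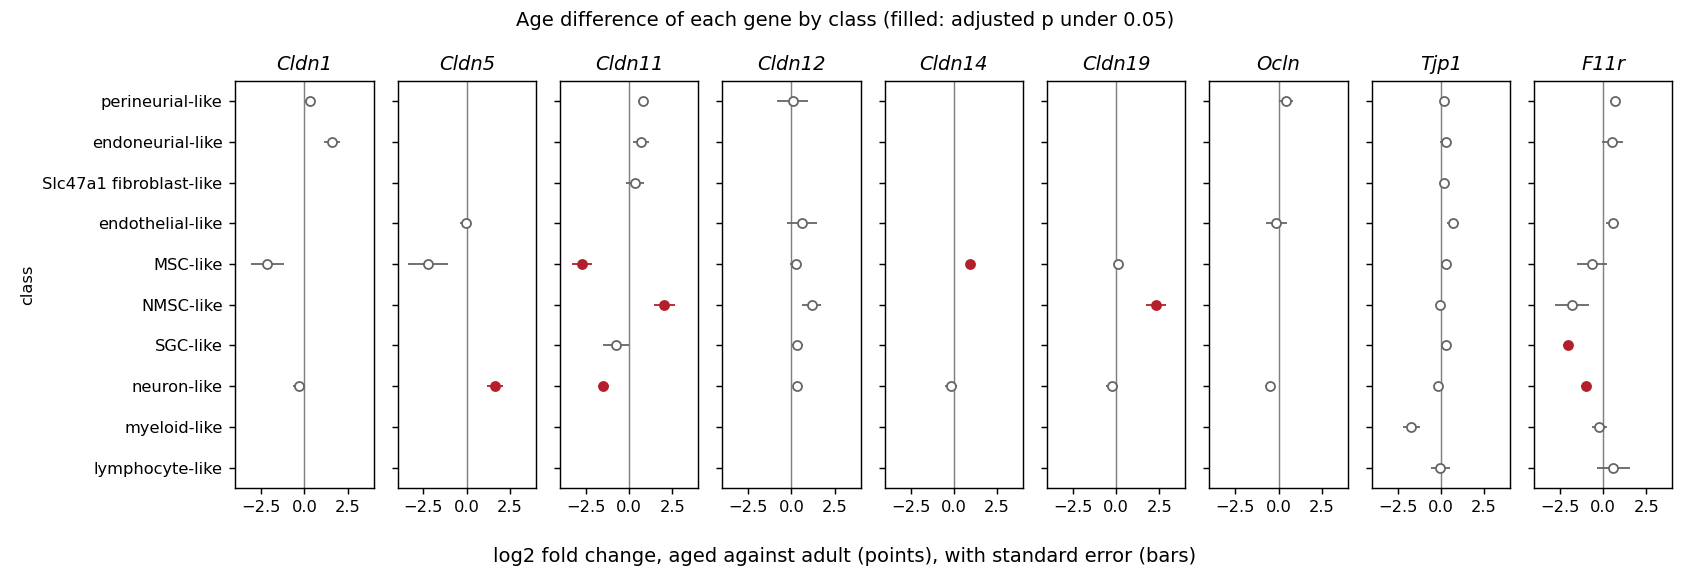
Log2 fold change of each gene (panels) in aged against adult libraries by class (vertical axis), for the 47 pairs that passed the filter. Bars give a standard error derived from the test statistic. Filled points are the 8 pairs with an adjusted p under 0.05, which range from -2.71 (Cldn11 in MSC-like nuclei) to 2.28 (Cldn19 in NMSC-like nuclei).

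F11r fell in SGC-like nuclei, from 21.7 CPM (216 UMIs) in the adult library to 6.07 (20 UMIs) and 5.82 CPM (11 UMIs) in the aged ones. Log2 fold change was -2.03 (SE 0.29, adjusted p = 9.38e-05). The same order was seen in both SGC-like clusters, with 22.1, 6.22 and 6.09 CPM in cluster 0 and 20.9, 5.68 and 4.02 CPM in cluster 3. The adult UMIs were spread over 194 of 3007 nuclei, at most 3 in a nucleus. Free RNA also held less F11r in aged libraries, 13.2 against 9.22 and 7.20 CPM, so that the adult value lay above free RNA and both aged values below it. With free RNA subtracted, an estimated 12.6%, 5.84% and 5.42% of the UMIs of SGC-like nuclei, the log2 fold change was -2.22 (adjusted p = 0.000191). The endothelial markers, of a class called higher for F11r, stood at 67.1, 42.5 and 22.2 CPM in SGC-like nuclei with none at 0, and the perineurial markers at 65.3, 69.0 and 86.2 CPM with 0, 2 and 4 of 10 at 0. The myeloid markers, also of a class called higher for F11r, stood there at 10.8, 10.9 and 15.9 CPM with none at 0. The part of these lists was not tested. Of the tests of whether an age difference was particular to a class, 1 of 90 pairs was called, F11r in SGC-like nuclei, with -1.86 (SE 0.42, adjusted p = 0.0251) against the mean difference of the other classes, where 0.490% of all pairs were called. That call was lost in 5 of the 7 alternatives that gave an adjusted p, and DESeq2 gave none. DESeq2's adjusted p for the SGC-like age difference was 0.0875.

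Cldn11 was called in both Schwann cell classes, but each pair passed the filter only through the age at which it is high, so that these calls were open to differences of that direction alone. In MSC-like nuclei it stood at 20.7 CPM (40 UMIs in 24 nuclei) in the adult and at 4.22 (10 UMIs) and 1.10 CPM (1 UMI) in the aged libraries, which is -2.71 on the log2 scale (SE 0.57, adjusted p = 6.38e-05). It was -4.21 without aged replicate 1 and -2.36 without aged replicate 2, with no test. In NMSC-like nuclei it stood at 3.93 CPM (8 UMIs), 19.4 (32 UMIs) and 17.2 CPM (14 UMIs), which is 2.03 on the log2 scale (SE 0.61, adjusted p = 0.0151). Against the mean difference of the other classes neither was called (adjusted p of 0.0511 and 0.0609). Markers of oligodendrocytes, a central cell with high Cldn11, summed to 47.2 CPM in adult MSC-like nuclei and to 7.59 and 1.10 CPM in the aged ones, with 1, 4 and 5 of the 6 genes at 0. Markers of the Slc47a1 fibroblast-like class, which also holds Cldn11, summed to 130 CPM in adult and to 40.5 and 37.4 CPM in aged MSC-like nuclei, with 0, 0 and 2 of the 5 genes at 0. Of the other classes called higher for Cldn11, the perineurial markers stood at 269, 266 and 285 CPM in MSC-like nuclei and the endoneurial markers at 916, 1530 and 1649 CPM, so that these lists did not fall with it. The part of these 3 lists was not tested. Of the 40 adult UMIs of Cldn11, 18 lay in the 17 nuclei that held a UMI of the oligodendrocyte list. Without all nuclei that did, levels were 11.9, 3.52 and 1.11 CPM and the log2 fold change was -2.16, a pair again open to a fall alone.

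Cldn19 was likewise called higher in aged NMSC-like nuclei, at 3.93 CPM (8 UMIs) when adult and 21.2 (35 UMIs) and 23.3 CPM (19 UMIs) when aged, which is 2.28 on the log2 scale (SE 0.58, adjusted p = 0.0020). All 3 are far below the MSC-like level. Against the 20, 21.0 and 13.5 CPM of free RNA the adult value lay below, that of aged replicate 1 close by and that of aged replicate 2 above. This pair too passed the filter through the aged libraries alone, where it is high. The summed fibroblast markers (Col1a1, Col1a2, Col3a1, Pdgfra, Dcn and Lum) moved with both genes in NMSC-like nuclei, from 367 to 1135 and 1019 CPM, with none at 0, while the summed MSC markers stood at 1534, 2036 and 1498 CPM. Of the classes called higher for Cldn11, the perineurial markers stood in NMSC-like nuclei at 171, 289 and 284 CPM (2, 3 and 3 of 10 at 0). The endoneurial ones stood at 348, 712 and 486 CPM (0, 0 and 1 of 7 at 0). The Slc47a1 fibroblast markers went the other way, at 38.8, 31.5 and 22.1 CPM with none at 0. The lymphatic endothelial markers were higher in the aged libraries, at 130, 561 and 530 CPM (2, 1 and 2 of 5 at 0). The part of these lists was not tested. Of the NMSC-like nuclei with no UMI of the fibroblast list (345, 57 and 40), the adult ones held 3 UMIs each of Cldn11 and Cldn19 (3.19 CPM), and the aged ones 1 and 0 UMIs of Cldn11 (4.34 and 0 CPM) and 0 and 0 of Cldn19, too few for the filter of the test. Cldn19 was thus not higher in the aged libraries in these nuclei, at counts too low to show a difference. With free RNA subtracted the log2 fold changes were larger, 3.69 for Cldn11 and 4.83 for Cldn19, but no longer called (adjusted p of 0.12 and 0.0948). In the class test the higher call of Cldn19 in NMSC-like nuclei (log2 fold change 0.99, SE 0.34, adjusted p = 0.0336) turned into a lower one with the gate on markers (-2.12, adjusted p = 0.00264).

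Cldn14 rose in MSC-like nuclei, from 53.4 CPM (103 UMIs) to 101 (240 UMIs) and 121 CPM (110 UMIs), which is 0.95 on the log2 scale (SE 0.21, adjusted p = 0.000121). After thinning, the share of nuclei with a UMI was 2.91% for adult and 5.75% and 6.29% for aged nuclei, whose intervals overlap that of the adult library (1.73 to 4.56, 3.89 to 8.16 and 3.18 to 11). Beside it the summed MSC markers, dominated by myelin genes, stood at 43018, 18606 and 17065 CPM, and their part in the result was not tested. The call was lost with 1 fit over all classes (0.94, adjusted p = 0.182) and with a minimum of 2000 genes (0.58, adjusted p = 0.124). It was also lost with DESeq2's Wald test, with the gate on markers and after thinning, where no age call of a member remained. Not every pair gave a value in every alternative, and F11r in SGC-like nuclei had values in 10 of them.

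In neuron-like nuclei 3 of the 9 genes were called (9.29% of all genes), at levels under 6 CPM. Cldn11 fell from 4.05 to 2.01 and 1.09 CPM (log2 fold change -1.49, SE 0.32, adjusted p = 0.000155) and F11r from 5.17 to 3.28 and 2.42 CPM (-0.97, SE 0.29, adjusted p = 0.0144), in both cases below the level of free RNA in the same library. Of lists from classes that hold Cldn11, the general fibroblast markers stood at 76.2, 63.5 and 37.4 CPM in these nuclei. The perineurial markers stood at 95.8, 113 and 99.8 CPM, the endoneurial ones at 108, 159 and 98.0 and the Slc47a1 fibroblast ones at 89.9, 88.2 and 91.6. The part of these lists was not tested. Cldn5 rose from 0.520 (35 UMIs) to 2.13 (87 UMIs) and 1.36 CPM (41 UMIs), again below free RNA (4.89, 6.92 and 3.47 CPM), by 1.63 on the log2 scale (SE 0.44, adjusted p = 0.00403). The summed endothelial markers stood at 84.4, 66.3 and 52.0 CPM in neuron-like nuclei, none at 0. One nucleus of aged replicate 2 held 13 of its 41 UMIs. Cluster 10, a neuron-like cluster with Grik1, Htr4 and Lpar3 among its leading genes, had the highest Cldn5 level (3.27, 18.8 and 13.7 CPM), and there the endothelial markers summed to 83.8, 155 and 108 CPM. The barrier endothelium markers summed there to 40.9, 121 and 68.6 CPM, and the part of these lists was not tested. Outside cluster 10 the difference was still called (1.65, adjusted p = 0.00841).

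**Figure D4:**
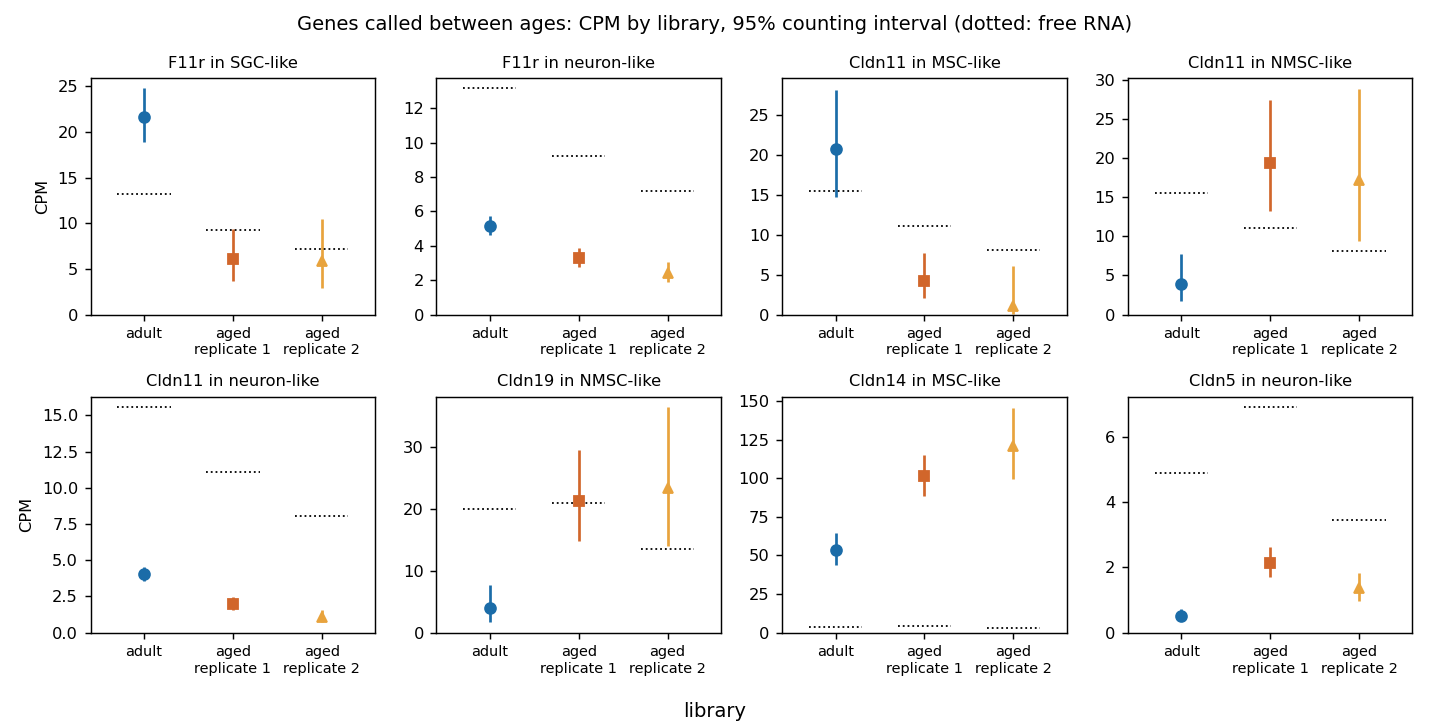
CPM by library for the 8 pairs called between ages (panels), with exact Poisson 95% intervals that cover counting error only, each panel with its own axis from 0. Short dotted lines give the level of the gene in free RNA of that library. Only Cldn14 in MSC-like nuclei lies above free RNA in all 3 libraries, and the neuron-like values lie below it in all.

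Among the other tight junction genes 17 pairs were called higher and 4 lower in aged libraries, of 252 tested (8.33%, against 6.50% of all pairs). The higher calls thus outnumbered the lower ones, where over all genes 2.39% were higher and 4.11% lower. The polarity scaffold Magi1 rose in MSC-like, NMSC-like, SGC-like and endoneurial-like nuclei, by 0.92 to 1.10 on the log2 scale, Ildr2 in NMSC-like (1.77) and SGC-like nuclei (1.95), and Magi3 in MSC-like (0.55), NMSC-like (0.71) and SGC-like nuclei (0.57). Neuron markers, of a class called higher for Magi3, stood at 605, 812 and 888 CPM in SGC-like, 868, 963 and 683 in NMSC-like and 996, 707 and 692 in MSC-like nuclei. For classes high in Ildr2, the Slc47a1 fibroblast markers stood at 23.2, 44.0 and 30.7 CPM in SGC-like and 38.8, 31.5 and 22.1 in NMSC-like nuclei. The perineurial ones stood at 65.3, 69.0 and 86.2 CPM and at 171, 289 and 284 CPM. The part of these lists was not tested. Ildr2 was also called in endoneurial-like nuclei, on 2, 21 and 17 UMIs (3.43, 44.1 and 47.8 CPM), where only the aged libraries passed the filter. Beside the calls of Magi1, Ildr2 and Cxadr in endoneurial-like nuclei, the summed NMSC markers stood there at 2303, 5329 and 4733 CPM, with none at 0. That list is not particular to NMSC-like nuclei, where it summed to 15806, 14908 and 14623 CPM, since SGC-like nuclei held 16353, 12143 and 12022 CPM of it. Also in endoneurial-like nuclei, the lymphatic endothelial markers stood at 388, 1273 and 1173 CPM, with 3 of 5 genes at 0 in each library. The part of either in those calls was not tested. In the barrier classes Cxadr rose in perineurial-like nuclei, from 233 to 609 and 831 CPM (1.56, SE 0.25, adjusted p = 1.67e-07), as did Jam2 (1.22, SE 0.38, adjusted p = 0.0386). In the same nuclei the endoneurial markers stood at 2115, 3396 and 4141 CPM (0, 1 and 1 of 7 at 0). The NMSC markers stood at 3097, 1822 and 820 CPM and the Slc47a1 fibroblast markers at 1427, 1288 and 907 CPM, with none at 0, and the part of these lists was not tested. Cgnl1 rose in endothelial-like nuclei, from 201 to 436 and 602 CPM (1.30, SE 0.35, adjusted p = 0.0129). There the NMSC markers stood at 3608, 2098 and 938 CPM (0, 0 and 1 of 7 at 0), the barrier endothelium markers at 1457, 1933 and 2094 CPM (none of 4 at 0), and the estimated share of free RNA at 34.8%, 22.6% and 13.7%. Their part in the change was not tested. Further higher calls were Magi2 (0.28) in MSC-like, Cgnl1 (0.87) in SGC-like and Cxadr (2.18) in endoneurial-like nuclei. The 4 lower calls were Jam2 (-1.02) and Pard6g (-0.95) in NMSC-like, Pard6g (-0.89) in SGC-like and Marveld2 (-0.85) in neuron-like nuclei.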

How the data were processed

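For each barcode the deposited matrices give whole UMI counts by gene, not normalized, from PIP-seq libraries run through Pipseeker by the authors. The processing notes name mm10. How counting treated strand is not given in the sources used here. The ages are those of the sample labels, which the series' design text gives otherwise for the aged mice.

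Totals were 167664164, 95647106 and 69045987 UMIs. Nuclei (over 1000 genes) were clustered with Seurat 5.3.0 (SCTransform, RPCA by age, 30 principal components, resolution 0.8) without the members or the other tight junction genes. A name needed 3 markers (neurons 4) over 2-fold above the other clusters. Mixed clusters 7, 13 and 27 (782, 547 and 207 nuclei in the 3 libraries), which may hold doublets, and classes under 20 nuclei in a library were not tested, and no doublet caller was run. Classes rebuilt from markers may differ from the study's.

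UMI sums per class and library were tested with edgeR 4.0.16 (R 4.3.3, TMM, filterByExpr, Benjamini-Hochberg over all genes tested, threshold 0.05), library as a block across classes. Each SE given with these tests is the size of the log2 fold change divided by the square root of the F statistic, not a value from the fit itself. The Wilcoxon test on nuclei in the study's methods was not used. Scripts were tested on simulated data. Members, lists and tests were chosen with earlier results of these data known. The rule for named genes took all members, up to 3 other tight junction genes per class and direction (Magi3 in NMSC-like and SGC-like nuclei was added after its values were seen), and the 3 most alike genes among those with a mean of 5 CPM. One gene of the other list is counted but not reported here by name. Of the gene identifiers, 99.6% were in GENCODE M21 (GRCm38), by which Cldn5 lies at chr16:18776847-18778262, Cldn1 at chr16:26356642-26371841, Cldn11 at chr3:31149920-31164324, Cldn14 at chr16:93919031-94008837, Cldn19 at chr4:119255414-119262438, Cldn12 at chr5:5489537-5514958, Ocln at chr13:100496507-100552718, Tjp1 at chr7:65296165-65527781 and F11r at chr1:171437535-171464603.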

Additional observations from a re-analysis of the deposited data

Results flagged for a closer look

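The age difference of F11r in SGC-like nuclei differed from the mean of the other classes by -1.86 on the log2 scale, by the interaction test of edgeR. Nuclei outside the classes tested also held members above the free RNA of their library, in cluster 26, which was left unnamed because its markers Foxd1, Klf5 and Mpzl2, of the perineurial list, were not among its 50 leading genes, and which was led by Ranbp3l, Atp13a5, Slc22a8, Slc6a20b and Ptgds (127, 22 and 12 nuclei). Cldn11 averaged 133 CPM there (157, 162 and 81.6), Ocln 41.8 CPM (30.5, 40.5 and 54.4) and Tjp1 693 CPM (601, 688 and 789). For Ocln this rests on 14, 4 and 4 UMIs.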

How the results depend on the processing

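Of the 20 higher calls by class, 15 kept their direction and side of the threshold in all alternatives run (11 or 12 each, leaving out each library included), and their number was 14 to 21, or 15 to 20 with a library left out. Of the 16 lower calls, 4 did so (Tjp1 in lymphocyte-like and myeloid-like, F11r in MSC-like and neuron-like nuclei), and 35 of 186 values under the alternatives were no longer called, with none reversed. The gate on markers reversed Ocln in neuron-like nuclei (-1.42) and Cldn19 in NMSC-like nuclei (-2.12). The cause was not tested, but the gate kept 6675 nuclei and left out 12584. The 8 age calls became 0 with DESeq2, with the gate and after thinning, and 5 with a minimum of 2000 genes and with 1 fit over all classes. All 8 kept their direction in the alternatives that gave a fitted value. The NMSC-like nuclei with no UMI of the fibroblast list gave none for Cldn11 and Cldn19, and there Cldn19 was not higher in the aged libraries. With an aged library left out, which gives no test, Cldn11 in MSC-like nuclei ranged from -4.21 to -2.36. The number of class-specific calls, 1 in the main setting, was 3 with no low-count filter. It was 0 with a minimum of 2000 genes, at resolution 1.5, with the gate and with free RNA subtracted. It was 2 with DESeq2, but these were other pairs, since DESeq2 gave F11r in SGC-like nuclei no adjusted p. Age calls of the other list (21) became 7 with DESeq2, 5 with the gate, 7 after thinning and 11 with 1 fit over all classes. Thinning moved Cldn5 in endothelial-like nuclei to 339 CPM, Cldn12 in MSC-like nuclei to 35.6 and Ocln in perineurial-like nuclei to 29.9, each by more than its SD over the libraries. Cldn14 in MSC-like nuclei also fell, from 91.9 to 62.7 CPM, but within its SD, which holds the age difference. Free RNA read from barcodes of 1 to 50 UMIs gave Cldn14 at 4.63 and Tjp1 at 130 CPM. No paired analysis was possible because adult and aged libraries share only 1 replicate number. Alternatives with subsets of nuclei, and the age tests with tight junction genes kept in the clustering, were chosen after seeing the data. With 1 adult library, age and library cannot be told apart.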
